A study of Mus musculus with 24 samples.

Results

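Group 8 is a set of 202 haematopoietic stem cells (HSCs) among 1430 index-sorted single cells, or 14.1% of them. Its members are the wells that carry the number 8 in the deposited index-sort record, which gives each recorded well a number from 1 to 10. The record does not state how these numbers were assigned. If they came from the same transcript counts, a test of a gene between groups is not independent of the grouping, so gene calls below describe the groups and support nothing beyond that. The cytometer's channels were recorded apart from the counts, but they stand in the same record as the group numbers. If the numbers rest in part on the channels, tests of channels are not independent of the grouping either. Group 8 was set against the 869 cells of groups 2 to 5 and against the 188 cells of group 9. All cells came from mice of the -60/DR5-TA-RA-CFP strain, known as carrying a cyan fluorescent protein (CFP) reporter of retinoic acid signalling. The labels name no treatment and no age. All were sorted as LSK CD150+ CD48- bone marrow cells of mixed CFP status. The labels list 8 single-cell batches, but nothing ties a well to a batch or an animal. The 4 sort plates of the record, numbered 2, 3, 4 and 5, therefore served as technical replicates, and no error or p-value below speaks to a difference between mice.

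A cell that leaves quiescence first makes the proteins that license replication origins and supply nucleotides, under E2F transcription factors that the G1 cyclin-dependent kinases set free. Replication-dependent histone genes are then expressed while DNA is copied, and genes of the spindle and kinetochore follow in G2 and mitosis. Most adult HSCs are quiescent, and genes such as Mllt3, Mecom and Hlf are known for keeping them as stem cells.

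Group 8 held 35, 48, 62 and 57 cells on plates 2, 3, 4 and 5, or 9.83%, 13.9%, 17.2% and 15.5% of each plate's recorded cells. Its summed UMIs (unique molecular identifiers, each 1 captured transcript) ran from 42939 to 98117 per plate, against 192265 to 328844 in groups 2 to 5 and 98965 to 151065 in group 9. Group 8 libraries were thus the shallowest, and levels are given as counts per library scaled to 1000000 UMIs (CPM). On plate 2 a single UMI in group 8 is 23.3 CPM. The 9 HSC markers checked summed to 1040 to 1638 CPM in group 8, against 2432 to 2801 in groups 2 to 5 and 1030 to 1655 in group 9. Cd48, Cd79a, Cd3e, S100a8, S100a9 and Cdh5, which mark other progenitor, lymphoid, neutrophil and endothelial cells, were at 0 in all 4 group 8 libraries. They had 0 UMIs in groups 2 to 5 and in group 9 too, save 1 UMI of S100a8 and 1 of S100a9. These zeros thus do not set group 8 apart. Other markers were present in group 8, with Flt3 of multipotent progenitors at 0 to 61.2 CPM, endothelial Pecam1 at 0 to 74.4, myeloid Prtn3 at 457 to 1048, globin Hba-a2 at 30.6 to 266 and platelet Pf4 at 46.6 to 680. In groups 2 to 5 they were at 25.3 to 42.7, 36.4 to 79.6, 900.1 to 1248, 72.4 to 243 and 31.2 to 134. Mpo, Elane, Gata1, Klf1 and the joined entry of Gp1bb were also detected in group 8, at means of 11.8 to 54.5 CPM. The 9 markers of early S phase summed to 1654 to 3795 CPM in group 8 and 926 to 1469 in groups 2 to 5, without overlap. The 6 markers of G2 and mitosis summed to 46.6 to 499 in group 8 and 210 to 271 in groups 2 to 5, which overlap. Plate 2 stood apart. Replication signal was lowest there in group 8, in groups 2 to 5 and in group 9. A few abundant transcripts, such as Ifitm1, were also far lower there in all 3 groups.

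Genes of DNA replication were the clearest feature of group 8. Against groups 2 to 5, most tested genes of origin licensing, nucleotide supply, the fork and replication-coupled chromatin were higher in group 8, by about the same amount in each list. Against group 9, 0 licensing genes passed in edgeR or in DESeq2, and 3 of 10 had an unadjusted p under 0.05. In the origin licensing and helicase list, 8 of 10 tested genes (18 listed) were higher in group 8 than in groups 2 to 5 and 0 were lower, with a median log2 fold change of 1.27. In the nucleotide and fork list the counts were 19 higher and 0 lower of 24 tested (32 listed), with a median of 1.18. In the replication-coupled chromatin list they were 8 higher and 0 lower of 10 tested (11 listed), with a median of 1.16. The background is that 11.9% of the 2865 tested genes were called in this comparison, 6.14% higher and 5.76% lower, with a median log2 fold change of all genes of -0.0019. Calls are edgeR quasi-likelihood tests on plate sums with plate as a block, at a Benjamini-Hochberg adjusted p under 0.05. Of all genes 341 passed, and 207, 166 and 139 passed without plate 3, 4 or 5. Without the plate block 76 passed, among them 6, 13 and 4 higher genes of the 3 replication lists. With every cell thinned to 1000 UMIs, 6 of 7, 9 of 13 and 5 of 6 testable genes of the 3 lists were higher. Without plate 2, the library with the weakest signal, 8, 18 and 9 were higher. The test against group 9 used the same group 8 libraries, so the 2 comparisons are not independent. There 4.26% of tested genes were called, 2.44% higher and 1.82% lower in group 8, and the 3 replication lists had 0, 4 and 2 genes lower and 0 higher, with medians of -0.09, -0.29 and -0.62. Without the plate block, 0 genes of the 3 lists passed against group 9.

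The MCM genes encode the subunits of the replicative helicase, which is loaded at origins before S phase. Mcm5 had 279, 621, 387 and 617 CPM in group 8 on plates 2, 3, 4 and 5, against 166, 219, 174 and 184 in groups 2 to 5 and 530, 554, 414 and 582 in group 9. Group 8 did not overlap groups 2 to 5, and it lay below group 9 on plates 2 and 4 and above it on plates 3 and 5. The log2 fold change was 1.35 ± 0.18 (SE; adjusted p = 7.2e-09, edgeR) over groups 2 to 5 and -0.05 ± 0.17 over group 9. Mcm2 (1.43 ± 0.21), Mcm7 (1.29 ± 0.18), Mcm4 (1.24 ± 0.27), Mcm3 (1.23 ± 0.25) and Mcm6 (0.90 ± 0.14) were also higher than in groups 2 to 5, and these calls held without each plate in turn. The plate values of Mcm4 and Mcm6 still overlapped groups 2 to 5. Mcm4 had 69.9 to 276 CPM in group 8 against 88.2 to 90.5, and Mcm6 had 303 to 893 against 182 to 474. Cdt1, which loads the helicase, was higher by 1.54 ± 0.28, and its values ran from 145 to 279 CPM in group 8 against 52.6 to 90.5 in groups 2 to 5. Its inhibitor geminin (Gmnn) was higher by 1.94 ± 0.42, but missed the threshold without plate 5 (1.53, adjusted p = 0.053, edgeR). Orc6, an origin recognition subunit, and Gins4, of the active helicase, had log2 fold changes of 0.95 and 0.48 and did not pass.

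Among genes at the fork, the sliding clamp Pcna had 373, 581, 520 and 712 CPM in group 8, against 130, 182, 228 and 187 in groups 2 to 5 and 629, 816, 788 and 529 in group 9. Group 8 lay above groups 2 to 5 on every plate without overlap, and on plate 5 also above group 9. The log2 fold changes were 1.56 ± 0.18 and -0.27 ± 0.16. Ung, which removes uracil from DNA, was at 93.2, 106, 153 and 170 in group 8, against 10.4, 27.4, 18.1 and 42.7 in groups 2 to 5 and 86.1, 155, 101 and 168 in group 9. Its level in group 8 averaged 130 CPM, close to the 128 of group 9, and the fold over groups 2 to 5 was 2.30 ± 0.40. DNA ligase Lig1 (1.73 ± 0.20), the primase partner Pola2 (1.53 ± 0.31), the single-strand binding subunit Rpa2 (1.32 ± 0.20) and the nucleotide hydrolase Dctpp1 (1.16 ± 0.15) were higher than in groups 2 to 5 as well.

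Thymidine kinase Tk1 differed from both sides. It had 23.3, 251, 265 and 340 CPM in group 8, against 10.4, 39.5, 36.2 and 26.3 in groups 2 to 5 and 384, 583, 606 and 512 in group 9. On plates 3 to 5 group 8 lay far above groups 2 to 5, while the plate 2 value is 1 UMI and lay within their range. The log2 fold change was 2.95 ± 0.31 over groups 2 to 5, the highest of the named genes, and -1.13 ± 0.22 (adjusted p = 9.9e-05, edgeR) over group 9, and both calls held without each plate. Thymidylate synthase Tyms was higher by 2.04 ± 0.36 than in groups 2 to 5, but the plate values overlapped. Tyms had 23.3 to 202 CPM in group 8, the lowest being 1 UMI, against 10.4 to 50.7 in groups 2 to 5. Its -0.92 ± 0.29 against group 9 missed the threshold (adjusted p = 0.051, edgeR). Slbp, which binds the stem-loop of histone mRNAs, was not higher than in groups 2 to 5 (-0.05 ± 0.44). It was lower than in group 9 by -1.50 ± 0.40, a call lost without plate 4 (-1.37, adjusted p = 0.20, edgeR).

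In replication-coupled chromatin, the hemimethylated-DNA reader Uhrf1 had 93.2, 158, 234 and 181 CPM in group 8, against 26.0, 27.4, 61.5 and 59.2 in groups 2 to 5 and 424, 253, 414 and 291 in group 9. The 3 sets did not overlap, and group 8 lay between the others on every plate. The log2 fold changes were 1.90 ± 0.32 and -0.95 ± 0.26, and the second was lost without plate 2 (-0.70, adjusted p = 0.18, edgeR) and without plate 4 (-1.04, adjusted p = 0.060). The maintenance methyltransferase Dnmt1 followed the same order, with 1.12 ± 0.17 over groups 2 to 5 and -0.60 ± 0.16 over group 9, and that second call was lost without plate 2 (-0.42) or plate 3 (-0.54). The chromatin remodeller Hells (1.42 ± 0.35), its partner Cdca7 (1.21) and the ATPase Atad2 (1.57 ± 0.33) were higher than in groups 2 to 5 without each plate in turn.

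**Figure D1:**
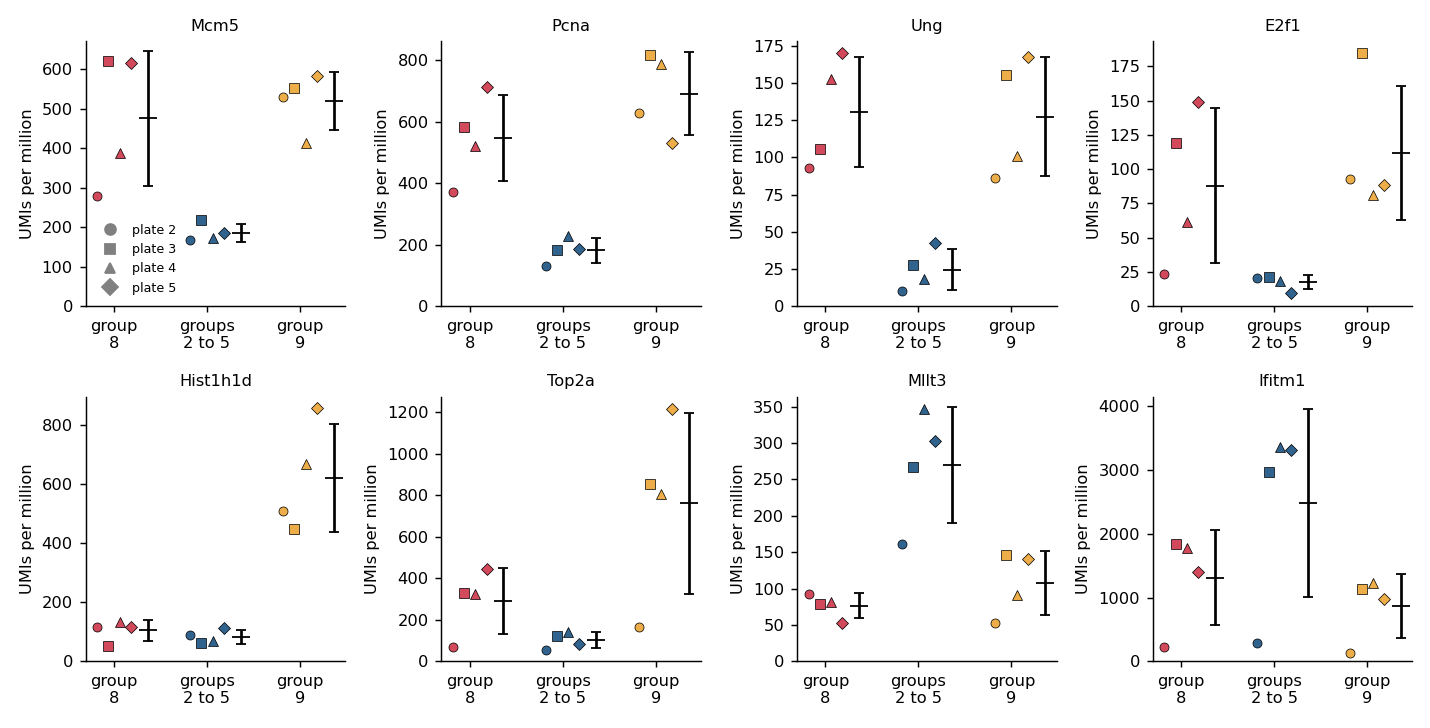
CPM (y axis) of 8 genes in the summed library of each sort plate, for group 8, groups 2 to 5 and group 9. Symbols are plates, and the bar beside them is the mean with its SD over 4 plates. The means of Mcm5, Pcna and Ung sit nearer to group 9 than to groups 2 to 5, while Mcm5 and Pcna on plate 2 do not. Hist1h1d sits near groups 2 to 5 (52.8 to 132 in group 8 against 447 to 856 in group 9), and Mllt3 lies below groups 2 to 5.

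E2F factors are known regulators of many replication genes, and the E2F-like motif TTTNNCGC was looked for on both strands in the 250 bases before each gene's RefSeq start (GRCm38.p6). It was found at 11 of the 35 tested replication-list genes with a promoter entry (31.43%, of 44 tested), at 232 of 2311 tested genes with an entry (10.04%) and at 1335 of 27025 RefSeq genes (4.94%). It was found at 3 of 29 tested HSC and dormancy-linked genes with an entry (10.34%) and at 1 of 10 tested replication-dependent histones. A match is a run of letters and was not tested as a binding site. The 110 bases before the starts of Mcm6 (chr1:128359706-128359815, minus strand) and Hells (chr19:38930880-38930989, plus strand) are shown 5′ to 3′ on the gene's strand as examples, with motif matches in capitals. In Mcm6 a pair of matches on opposite strands overlap in the first run of capitals.
Mcm6: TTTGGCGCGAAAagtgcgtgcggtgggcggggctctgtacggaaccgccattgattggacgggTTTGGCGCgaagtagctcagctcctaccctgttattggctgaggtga
Hells: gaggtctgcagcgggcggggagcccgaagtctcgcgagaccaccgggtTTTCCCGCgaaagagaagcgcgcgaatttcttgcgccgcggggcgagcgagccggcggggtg

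The replication-dependent histone genes set group 8 apart from group 9. Group 8 was far below group 9 in their level and nearer to groups 2 to 5. The licensing genes of group 8 summed to 1770, 3486, 3659 and 3955 CPM on plates 2, 3, 4 and 5. They summed to 1019, 1393, 1639 and 1433.5 in groups 2 to 5 and 3502, 3925, 4082 and 4139 in group 9. Licensing genes thus lay nearer to group 9 on plates 3 to 5, and nearer to groups 2 to 5 on plate 2. Of 11 tested histone entries (61 listed), 10 were lower in group 8 than in group 9 and 0 were higher, with a median log2 fold change of -2.21. The filter on low counts took in group 9, so an entry could be tested through its level there, which bears on this count. Without this filter, the 61 listed entries summed to 1211 to 3136 CPM in group 8 and 4489 to 12857 in group 9. In groups 2 to 5 they summed to 1347 to 1956. Without each plate in turn 7 of these 10 calls held, and without the plate block 1 passed. Against groups 2 to 5, 2 were higher and 1 lower, with a median of 0.28. This second median depended on the setting. It was 0.85 without plate 2 (4 higher and 0 lower of 9), 0.55 in cells of at least 1000 UMIs, and -0.12 with group 4 as the only reference (1 higher and 2 lower of 8). Poly(T) primers were used, and most replication-dependent histone mRNAs are known to lack a poly(A) tail, so the counts cover only part of these transcripts. What part this plays was not tested.

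Linker histone Hist1h1d had 116, 52.8, 132 and 117 CPM in group 8, against 88.4, 60.8, 68.8 and 112 in groups 2 to 5 and 510, 447, 667 and 856 in group 9. Group 8 overlapped groups 2 to 5 and lay below group 9 on every plate. The log2 fold changes were 0.28 ± 0.31 over groups 2 to 5 and -2.53 ± 0.24 over group 9 (adjusted p = 2e-14, edgeR). It was the 1 gene that also passed against group 9 without the plate block (-2.49, adjusted p = 0.0012, edgeR). The joined entry Hist1h2be;Hist1h1e, whose reads cannot be split between its genes, was at 419, 291, 448 and 967 in group 8, against 588, 401, 514 and 658 in groups 2 to 5 and 1410, 1263, 1980 and 2718 in group 9. Its values were -0.05 ± 0.14 and -1.72 ± 0.13. The core histone genes Hist1h2ae (-2.38 ± 0.24) and Hist1h4d (-2.07 ± 0.24) and the linker genes Hist1h1a (-2.26 ± 0.24) and Hist1h1c (-1.81 ± 0.22) were lower than in group 9 in the full data and without each plate. Histone genes of one type are near copies of each other, so reads may be split among them.

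Hist1h1b passed the test on both sides. It had 69.9, 277, 326 and 521 CPM in group 8, against 83.2, 85.1, 214 and 148 in groups 2 to 5 and 1172, 758, 1506 and 2586 in group 9. Group 8 overlapped groups 2 to 5, lay below them on plate 2, and stayed below group 9 on every plate. The fold over groups 2 to 5 was 1.18 ± 0.22, which missed the threshold without plate 5 (0.85, adjusted p = 0.069, edgeR), and the fold over group 9 was -2.21 ± 0.17. Hist1h3b was higher than in groups 2 to 5 by 2.63 ± 0.75 on few UMIs, a call lost without plate 3 (2.45, adjusted p = 0.054, edgeR) or plate 5 (2.04, adjusted p = 0.25). Hist1h2bc was lower by -1.42 ± 0.39, a call lost without plate 4 (-1.21, adjusted p = 0.080), and it did not pass the filter on low counts without plate 2.

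Shares of each cell's UMIs gave the same order at equal depth. After thinning to 1000 UMIs, which kept 164 of 202 group 8 cells, 568 of 869 in groups 2 to 5 and 178 of 188 in group 9, genes of the 3 replication lists made up 1.12 ± 0.340% of UMIs in group 8, 0.522 ± 0.0769% in groups 2 to 5 and 1.47 ± 0.147% in group 9 (SD, n = 4 plates). Without thinning the shares were 1.15 ± 0.308%, 0.509 ± 0.0684% and 1.53 ± 0.109%. The group 8 share was 0.663% on plate 2, 1.06% on plate 3, 1.33% on plate 4 and 1.42% on plate 5. In groups 2 to 5 (0.432%) and group 9 (1.3%) the share was lowest on plate 2 too. The group 8 difference was 0.230 to 0.885 percentage points from groups 2 to 5 and -0.638 to -0.151 from group 9. The direction was the same on 4 of 4 plates each. The exact two-sided sign-flip permutation p over 4 plates was 0.13 for both, the smallest that 4 plates allow. Histone genes made up 0.181 ± 0.0756% in group 8, 0.171 ± 0.0361% in groups 2 to 5 and 0.705 ± 0.326% in group 9. The difference from groups 2 to 5 was positive on 2 of 4 plates (exact permutation p = 0.875), and that from group 9 was negative on 4 of 4 (exact permutation p = 0.13).

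**Figure D2:**
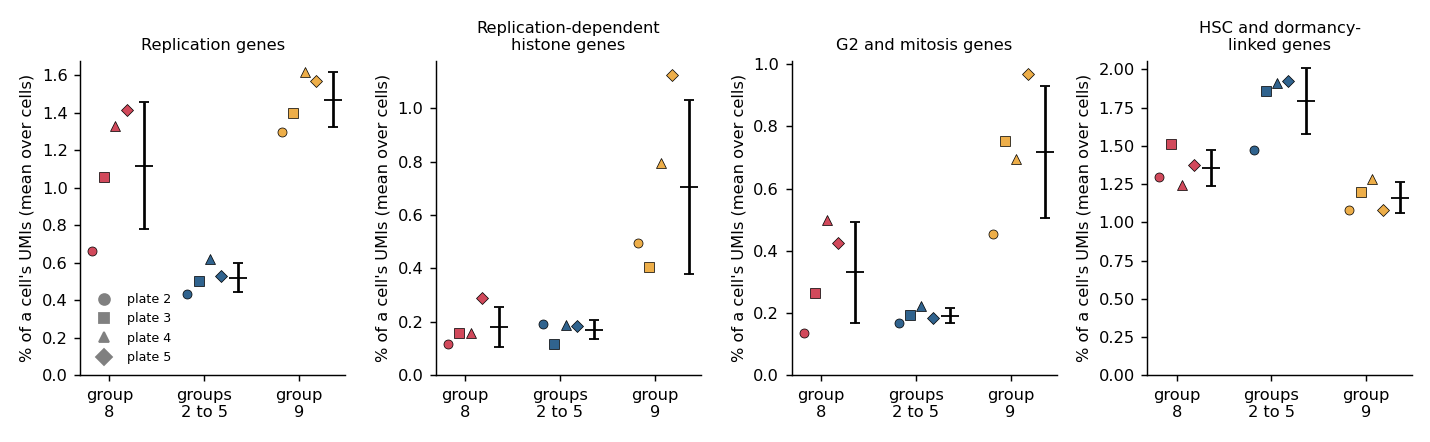
Percent of a cell's UMIs, after thinning to 1000, from 4 gene sets (y axis, mean over the cells of a plate) in group 8, groups 2 to 5 and group 9. Symbols are plates and bars the mean and SD over 4 plates; the replication share of group 8 (1.12%) averaged between group 9 (1.47%) and groups 2 to 5 (0.522%), nearer to groups 2 to 5 on plate 2, while its histone share (0.181%) lies at that of groups 2 to 5 (0.171%).

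Genes of G2 and mitosis lay between the others. Of 27 tested entries (63 listed), 9 were higher in group 8 than in groups 2 to 5 and 0 lower (median 0.98), and 9 were lower than in group 9 and 0 higher (median -0.92). Over groups 2 to 5, 16 of 26 were higher without plate 2, 5 of 25 without plate 4, 6 of 22 without plate 5, 5 in DESeq2 and 4 without the plate block, and 5 of the 9 calls held without each plate. Against group 9, 5 were lower without plate 3, 12 without plate 4, 4 without plate 5, 5 in DESeq2 and 0 without the plate block, and 3 of the 9 calls held without each plate. Their share of thinned UMIs was 0.331 ± 0.163% in group 8, 0.192 ± 0.0234% in groups 2 to 5 and 0.718 ± 0.211% in group 9. On plate 2 it was 0.138% in group 8, below the 0.168% of groups 2 to 5, and on the other plates it was above (exact permutation p = 0.25). Topoisomerase Top2a had 69.9, 330, 326 and 446 CPM in group 8, against 57.2, 125, 141 and 82.2 in groups 2 to 5 and 165, 855, 808 and 1218 in group 9. Within every plate group 8 lay between the others. The folds were 1.51 ± 0.23 and -1.30 ± 0.19. Members that were higher than in groups 2 to 5 without each plate were the kinetochore genes Cenph (2.17 ± 0.37) and Spc24 (2.11 ± 0.31), the mitotic kinase Cdk1 (1.64 ± 0.30) and its binding subunit Cks1b (1.47 ± 0.26). Ube2c, of the anaphase-promoting machinery, was higher by 2.16 ± 0.42, but it was at 0 in group 8 on plates 2 and 3 and missed the threshold without plate 4 (1.10, adjusted p = 0.34, edgeR). The centromere histone gene Cenpa (0.29) and the joined entry with the mitotic kinase Plk1 (0.34) did not pass. Cdca8, of the chromosomal passenger complex, was lower than in group 9 by -1.83 ± 0.33 and did not pass against groups 2 to 5 (0.88 ± 0.42). Over all thinned cells the share was 0.368% in group 8, against 2.10% in group 10 of the record.

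The tubulin gene Tuba1b had 2375, 2219, 2945 and 2413 CPM in group 8, against 1066, 958, 1122 and 970 in groups 2 to 5 and 3575, 3420, 3466 and 3159 in group 9. The 3 sets did not overlap, and group 8 lay between the others. The folds were 1.24 ± 0.08 and -0.39 ± 0.08. Tubb5 followed (0.79 ± 0.10 and -0.65 ± 0.09). The chromatin protein gene Hmgb2 was higher than in groups 2 to 5 (1.45 ± 0.19) and lower than in group 9 (-0.79 ± 0.17), and its relative Hmgb1 was lower than in group 9 (-0.99 ± 0.21) with -0.17 ± 0.21 against groups 2 to 5.

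**Figure D3:**
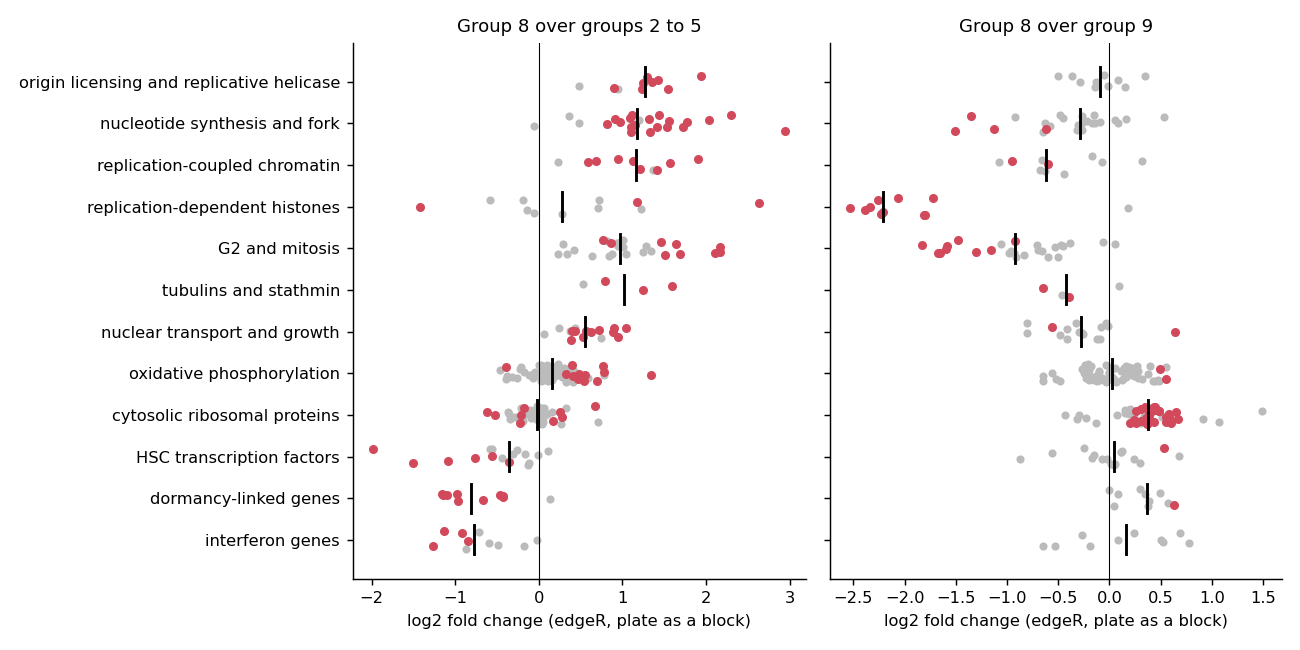
Log2 fold changes (x axis) of tested genes in 12 lists, for group 8 over groups 2 to 5 (left) and over group 9 (right), which share the group 8 libraries. Red points passed an adjusted p of 0.05 in edgeR, grey points did not, and black bars are list medians; licensing genes sit at 1.27 on the left and -0.09 on the right, replication-dependent histones at 0.28 and -2.21.

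Regulators of G1 were mixed. Of 6 tested genes of that list (16 listed), 2 were higher and 2 lower in group 8 than in groups 2 to 5 (median -0.27), and 0 passed against group 9 (median -0.09). The G1 kinase Cdk4 had 862, 964, 1182 and 1180 CPM in group 8, against 728, 587, 659 and 681 in groups 2 to 5 and 1178, 1137, 1283 and 1235 in group 9. Group 8 lay above groups 2 to 5 without overlap, by 0.65 ± 0.11. E2f1, an activator of S phase genes, was at 23.3, 119, 61.2 and 149 in group 8, against 20.8, 21.3, 18.1 and 9.86 in groups 2 to 5 and 92.7, 185, 80.8 and 88.2 in group 9. Its fold over groups 2 to 5 was 2.40 ± 0.51, on 1 UMI in group 8 on plate 2, and without plate 5 it did not pass the filter on low counts. The joined entry of cyclin Ccnd2 was lower than in groups 2 to 5 by -0.49 ± 0.13, a call lost without plate 4 (-0.49, adjusted p = 0.053, edgeR) or plate 5 (-0.47, adjusted p = 0.061). Txnip, which binds thioredoxin and restrains glucose uptake, had 559, 528, 601 and 606 in group 8, against 811, 1156, 1390 and 1549 in groups 2 to 5 and 397, 427, 647 and 512 in group 9. It was the 1 tested gene of 14 listed CDK inhibitors and antiproliferative genes, and it was lower than in groups 2 to 5 by -1.20 ± 0.12 without overlap.

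Genes of nuclear transport and growth were higher as well. Over all tested genes, 6.14% were called higher and 5.76% lower in group 8 than in groups 2 to 5. Against group 9 these shares were 2.44% and 1.82%. A list below with few calls is not set apart from other genes by its count. Of 16 tested genes of nuclear transport and growth (19 listed), 11 were higher and 0 lower in group 8 than in groups 2 to 5 (median 0.55), and 1 was higher and 1 lower than in group 9 (median -0.28). Of the 11 calls 6 held without each plate, and 4 genes passed without the plate block. The nuclear transport GTPase Ran had 815, 1056, 917 and 1042 CPM in group 8, against 510, 462, 492 and 493 in groups 2 to 5 and 1059, 1059, 1162 and 988 in group 9. Group 8 and groups 2 to 5 did not overlap (0.94 ± 0.12), and group 8 overlapped group 9. Its partner Ranbp1 (0.89), the nucleotide kinase Nme1 (0.72 ± 0.14), the RNA-binding protein gene Ybx1 (0.57 ± 0.10) and the translation factor gene Eif5a (0.39) were higher without each plate. Nme2 was higher than both groups 2 to 5 (0.89 ± 0.11) and group 9 (0.64 ± 0.12). It had 1677, 1149, 1305 and 1095 in group 8, against 759, 660, 670 and 582 in groups 2 to 5 and 927, 923, 879 and 706 in group 9, without overlap. Of 20 tested nucleolar genes 1 was higher than in groups 2 to 5 (median 0.19), and of 26 chaperone genes 4 were (median 0.09). Of 20 translation factor genes 0 were higher and 4 lower (median -0.10), of which only the elongation factor gene Eef1a1 (-0.32 ± 0.06) held without each plate. Of 10 glycolysis genes 1 was higher (median -0.00057). In oxidative phosphorylation 11 of 70 were higher and 1 lower (median 0.16), and 3 of these 12 calls held without each plate. Those that held were the ATP synthase genes Atp5g1 (1.35 ± 0.29), Atp5g3 (0.56 ± 0.11) and Atp5e (0.47 ± 0.10). Of 35 proteasome genes 4 were higher (median 0.32) and of 28 splicing genes 6 were, led by Snrpd1 (0.83 ± 0.15).

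Ribosomal protein genes separated group 8 from group 9. Of 53 tested (84 listed), 29 were higher and 0 lower in group 8 than in group 9 (median 0.38), while 4 were higher and 5 lower than in groups 2 to 5 (median -0.02). The calls against group 9 held for 20 of these 29 without each plate, and for 0 without the plate block. Rpl32 of the large subunit had 303, 6167, 6523 and 5921 CPM in group 8, against 296, 5826, 6445 and 6059 in groups 2 to 5 and 218, 4226, 4325 and 4121 in group 9. All 3 groups were low on plate 2, and group 8 lay above group 9 within every plate. Its fold was 0.60 ± 0.07 over group 9 and -0.02 ± 0.06 over groups 2 to 5, and Rpl13 was higher than in group 9 by 0.59 ± 0.09. The share of thinned UMIs from ribosomal protein genes was 17.7 ± 0.413% in group 8, 16.9 ± 0.404% in groups 2 to 5 and 14.2 ± 0.686% in group 9. Such shares are relative, and group 9 cells held more UMIs in all.

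Most tested dormancy-linked genes, and some stem cell genes, were lower in group 8 than in groups 2 to 5. The dormancy-linked genes summed to 4215, 6880, 6288 and 6027 CPM in group 8 on plates 2, 3, 4 and 5, against 5388, 9244, 9869 and 10274 in groups 2 to 5 and 3522, 5101, 5497 and 4615 in group 9, so that group 8 lay between the others on every plate. Of 10 tested dormancy-linked genes (20 listed) 9 were lower and 0 higher than in groups 2 to 5 (median -0.81), and 1 was higher than in group 9 (median 0.36). Of these 9 calls 4 held without each plate, with 4 calls left without plate 5. Without the plate block 1 of the 10 passed, and in DESeq2 4. Of 17 tested HSC transcription factor genes (28 listed) 6 were lower and 0 higher than in groups 2 to 5 (median -0.36), and 1 was higher than in group 9, while 11 did not pass against groups 2 to 5. Of the 6 calls 3 held without each plate. Mllt3 had 93.2, 79.2, 81.5 and 53.2 CPM in group 8, against 161, 268, 347 and 302 in groups 2 to 5 and 53, 146, 90.9 and 141 in group 9. Group 8 lay below groups 2 to 5 without overlap (-1.98 ± 0.29) and overlapped group 9 (-0.56 ± 0.37, not passed). Hlf had 186, 317, 214 and 191 in group 8, against 452, 587, 391 and 457 in groups 2 to 5 and 212, 146, 222 and 185 in group 9, a fold of -1.08 ± 0.19 over groups 2 to 5. Mecom was lower by -1.51 ± 0.34 with values of 23.3 to 81.5 in group 8 against 120 to 201 in groups 2 to 5. Gata2 (-0.44), Meis1 (-0.31) and Fli1 (0.11) did not pass.

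Ifitm1, an interferon-induced membrane protein gene in the dormancy-linked list, was at 233, 1836, 1784 and 1403 CPM in group 8, against 286, 2974, 3362 and 3308 in groups 2 to 5 and 139, 1137, 1223 and 971 in group 9. All 3 groups were low on plate 2, and within every plate group 8 lay between the others. The folds were -0.98 ± 0.09 and 0.63 ± 0.11, and both calls held without each plate. The HSC-enriched membrane gene Pdzk1ip1 (-0.96 ± 0.14), the lymphoid GTPase Gimap6 (-1.16 ± 0.21) and Tmem176b (-0.43 ± 0.10) were lower than in groups 2 to 5. Procr, the surface receptor EPCR, was the 1 of 8 tested HSC surface genes (22 listed) that passed. It was lower by -1.54 ± 0.38, a call lost without plate 4 (-1.06, adjusted p = 0.14, edgeR). Of 10 tested interferon genes (30 listed) 4 were lower than in groups 2 to 5 and 0 higher (median -0.78), and 1 of these 4 calls held without each plate. The call that held was the interferon signalling factor Irf9 (-1.27 ± 0.35). The MHC class II invariant chain Cd74 was lower by -1.65 ± 0.25, and it was 1 of 6 tested class II genes to pass. Of 5 tested retinoic acid pathway genes (21 listed), 0 passed in edgeR or DESeq2 in either comparison, with medians of -0.37 over groups 2 to 5 and 0.01 over group 9. At an unadjusted p under 0.05 there were 2 over groups 2 to 5 and 0 over group 9.

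Few lineage genes could be tested. Against groups 2 to 5, 1 of 5 erythroid genes and 1 of 3 myeloid progenitor genes were lower in group 8, and 1 of 4 megakaryocyte genes was higher. Against group 9, 1 erythroid gene was higher and 1 lower, and 0 of the myeloid and megakaryocyte genes passed in edgeR or DESeq2, with 2 of each list at an unadjusted p under 0.05. The erythroid carbonic anhydrase gene Car1 was lower than in group 9 by -1.53 ± 0.42, a call lost without plate 3 (-0.45, adjusted p = 0.77, edgeR) or plate 4 (-1.53, adjusted p = 0.064). The globin gene Hbb-b1 was higher than in group 9 by 0.93 ± 0.28, a call lost without plate 3 (0.95, adjusted p = 0.080, edgeR), plate 4 (0.72, adjusted p = 0.36) or plate 5 (0.74, adjusted p = 0.38). The erythroid factor gene Gata1 averaged 11.8 CPM in group 8, against 18.9 in groups 2 to 5 and 75.4 in group 9, and was not named by the rule. The erythroid-linked carbonic anhydrase gene Car2 was lower in group 8 than in groups 2 to 5 by -0.34 ± 0.07, and the granule protease gene Prtn3 by -0.65 ± 0.12. The platelet factor gene Pf4 was higher than in groups 2 to 5 by 1.27 ± 0.32, but its values in group 8 were 46.6, 52.8, 112 and 680, and without plate 5 the fold was -0.32. Of 12 listed T and NK cell genes, 19 of mature neutrophils and monocytes, 9 of mast cells and basophils and 14 of endothelial and stromal cells, 0 passed the filter on low counts.

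Among the genes with the lowest folds over groups 2 to 5, several were not in a cell-cycle or stem cell list. They were the homeobox partner Pbxip1 (-2.0 ± 0.46), the phosphoinositide 3-kinase subunit Pik3r1 (-1.82 ± 0.35), the endoplasmic reticulum turnover receptor Fam134b (-1.71 ± 0.36), Mettl7a1 (-1.69 ± 0.28) and the joined entry of the endocytic scaffold Itsn1 (-1.54 ± 0.26), and these calls held without each plate. Pik3r1 had 69.9, 39.6, 71.3 and 21.3 CPM in group 8, against 224, 155, 138 and 174 in groups 2 to 5 and 113, 77.7, 111 and 97.1 in group 9. Group 8 was the lowest of the 3 on every plate, although the fold over group 9 (-0.93 ± 0.43) did not pass. The 12 highest genes over group 9 had folds of 0.76 to 1.68, and 0 of these 12 calls held without each plate. Of them the autophagy gene Map1lc3b was at 404 to 502 in group 8 against 233 to 282 in group 9, a fold of 0.80 ± 0.19 that missed the threshold without plate 3 (0.68, adjusted p = 0.098, edgeR). The lowest over group 9 was Rbbp4, a histone chaperone subunit, at -2.55 ± 0.49, with 46.6, 0, 40.8 and 21.3 in group 8 and 132, 146, 152 and 194 in group 9. This call held without each plate.

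Within group 8 the cells were uneven. Per 1000 UMIs a cell held a median of 11 UMIs of replication genes, with the middle 50% of cells between 7 and 16, against a median of 4.5 in groups 2 to 5 and 14 in group 9. Above the 90th percentile of groups 2 to 5, at 10.3 UMIs, lay 54.9% of group 8 cells and 74.7% of group 9 cells. By plate the share in group 8 was 20.8%, 36.8%, 66.0% and 73.1% on plates 2, 3, 4 and 5, so the plates differed widely. The level was taken over all plates, and the other groups varied by plate too. Their shares on plates 2, 3, 4 and 5 were 1.90%, 7.10%, 16.7% and 13.6% in groups 2 to 5. In group 9 they were 65.2%, 69.4%, 89.5% and 82.9%, so plate 2 was lowest in each group. Above the corresponding level of histone UMIs, at 4, lay 9.15% of group 8 cells, 7.22% of cells in groups 2 to 5 and 35.96% of group 9 cells. In group 8 this was 0%, 5.26%, 6.0% and 19.2% on plates 2, 3, 4 and 5. Without plate 5 it was 4.46% in group 8, against 7.01% in groups 2 to 5 and 32.2% in group 9, so group 8 then lay below groups 2 to 5. Cells high in both made up 6.10% of group 8, 0.352% of groups 2 to 5 and 29.2% of group 9. Plate 5 held most of these group 8 cells, and without it the shares were 1.79% of group 8 (2 of 112 cells), 0.242% of groups 2 to 5 and 25.9% of group 9. Cells high in replication genes and not in histones made up 48.8% of group 8, 9.68% of groups 2 to 5 and 45.5% of group 9. On plates 2, 3, 4 and 5 this was 20.8%, 34.2%, 64.0% and 57.7% of group 8. In group 9 it was 43.5%, 41.7%, 57.9% and 40.0%. Group 8 thus lay below group 9 on plates 2 and 3 and above it on plates 4 and 5. The sets of cells above are ranges of a level and not cell types, and cells of a plate are not replicates.

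**Figure D4:**
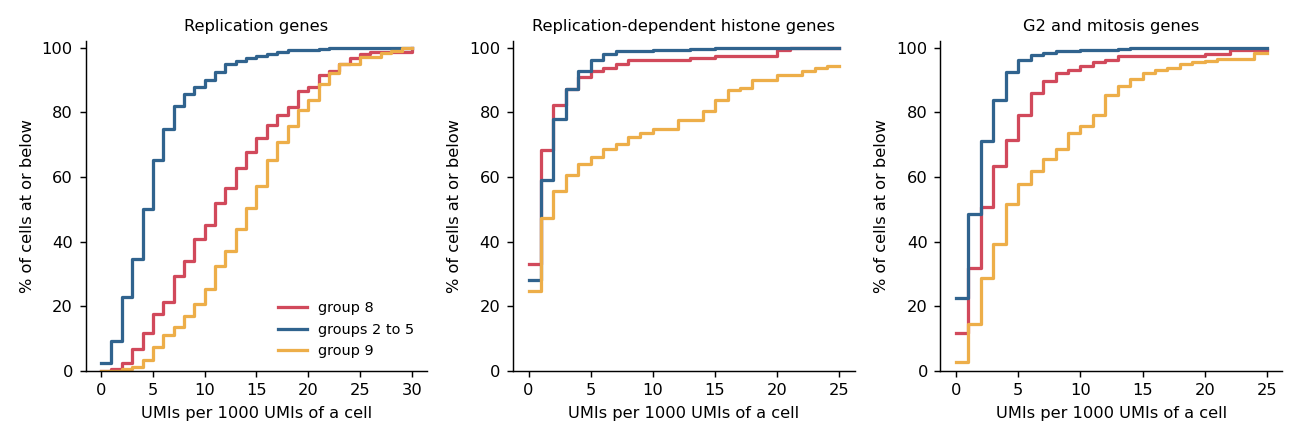
Cumulative percent of cells (y axis) by UMIs per 1000 (x axis) from replication, histone and G2 and mitosis genes, for 164 cells of group 8, 568 of groups 2 to 5 and 178 of group 9. Cells are pooled over plates, which differed. The replication curve of group 8 (median 11) runs mostly between those of groups 2 to 5 (median 4.5) and group 9 (median 14). Its histone curve (median 1) runs with that of groups 2 to 5 (median 1) and apart from group 9 (median 2).

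Group 8 cells also held more transcripts and were brighter in CFP than cells of groups 2 to 5. The median cell had 1251, 1484.5, 1520 and 1506 UMIs in group 8 on plates 2, 3, 4 and 5, against 1134, 1330, 1058.5 and 1117 in groups 2 to 5 and 1921, 2621, 2501.5 and 2902.5 in group 9. Group 8 lay between the others within every plate, at 1.24 times groups 2 to 5 and 0.584 times group 9 (exact permutation p = 0.13 each). CFP was taken as a cell's percentile rank within its plate. Its median in group 8 was 66.7 ± 6.31 (SD, n = 4 plates), against 39.5 ± 1.40 in groups 2 to 5 and 86.3 ± 5.27 in group 9. The difference was 19.0 to 33.7 percentile points from groups 2 to 5 and -30.4 to -14.7 from group 9, with the same direction on 4 of 4 plates each (exact permutation p = 0.13, adjusted p = 0.194 over 28 channel tests). The brightest 20% of a plate held 17.1%, 31.3%, 32.3% and 36.8% of group 8 cells, and 29.4 ± 8.51% on average, against 8.40 ± 1.68% of groups 2 to 5 and 59.4 ± 9.09% of group 9. The dimmest 20% held 7.31 ± 3.32% of group 8, 27.1 ± 1.53% of groups 2 to 5 and 3.69 ± 4.31% of group 9. Among the 202 group 8 cells, the rank correlation of CFP with UMIs within a plate averaged 0.272, given as a description. This correlation averaged 0.215 in groups 2 to 5 and 0.486 in group 9, so it was not particular to group 8.

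The record names dyes and no antibodies, so a channel cannot be tied to a surface marker here. Side scatter area in group 8 differed by 19.7 percentile points from groups 2 to 5 and by -13.4 from group 9. PE-Cy7 differed by 20.3 and -10.0, and DAPI by 21.4 and -10.3, in the same order. APC-Alexa Fluor 750 differed by 21.97 and -16.1. All 4 plates went in these directions for each of the 4 channels. Alexa Fluor 700 went the other way, with -16.1 from groups 2 to 5 on 4 of 4 plates and 2.25 from group 9, positive on 3 of 4. PE was above groups 2 to 5 on every plate. PE-Cy5 and APC were below groups 2 to 5 on plates 2 and 3 and above them on plates 4 and 5. Forward scatter width was 16.8 points above groups 2 to 5, with a difference of 0 on plate 2. Forward scatter height showed -0.524 points against groups 2 to 5 (exact permutation p = 1, adjusted p = 1). None of the 28 adjusted values was under 0.194, and the smallest unadjusted p that 4 plates allow is 0.13. UMIs per cell moved in the same order as CFP, and their part in it was not tested.

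**Figure D5:**
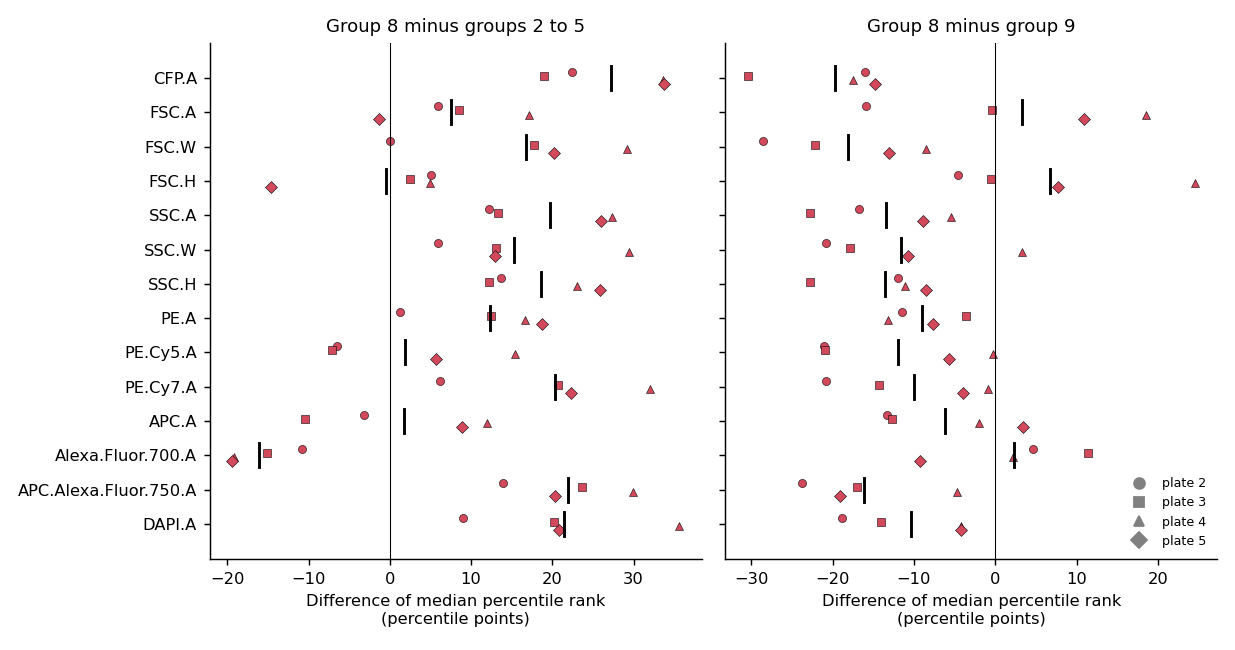
Difference of the median percentile rank within a plate (x axis, percentile points) between group 8 and groups 2 to 5 (left) or group 9 (right), for CFP and the other 13 cytometer channels. Symbols are plates and black bars means; CFP lies at 27.2 on the left and -19.7 on the right, and Alexa Fluor 700 is at -16.1 on the left.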

How the data were processed

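Per the labels' protocols, HSCs were sorted 1 per well into plates with barcoded poly(T) primers, and pooled cDNA was amplified in vitro before sequencing. The authors deposited a table of whole UMI counts with 27297 gene entries and 1536 wells, not normalized per the values. It was joined by well to a deposited index record of 1430 wells, none listed more than once. The 106 wells without a record (at most 502 UMIs) were not used, and recorded wells had at least 511. Deposited scatter channels are whole channel numbers and the fluorescence channels are log10 of such numbers, judged from the values, with no scale stated, so ranks within a plate were used. Spreadsheet errors replace 47 PE, 14 PE-Cy5, 77 PE-Cy7 and 70 DAPI values, which were left out. The submitters' processing notes name cutadapt, STAR, featureCounts, DESeq2, Bismark 0.19.0, bcl2fastq 2.15.0.4, mm9 and mm10 for the series. The sources used here do not give how reads became UMIs. Bulk RNA and bisulphite samples were not analysed here.

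UMIs were summed per plate and group and tested with edgeR 4.0.16 in R 4.3.3 (quasi-likelihood test with plate as a block, after filterByExpr and TMM, with a Benjamini-Hochberg threshold of 0.05), group 8, groups 2 to 5 and group 9 in 1 fit. The filter took in the libraries of all 3 groups, so a weak gene could be tested through the group where it is high. With 6 residual and 89.2 prior degrees of freedom, small p-values borrow from the spread over all genes. Folds are log2, group 8 over the other. The SE was derived as the size of the fold divided by the square root of the edgeR F statistic. Same-plate libraries deviated together (correlations of 0.284 to 0.576 between group 8 and groups 2 to 5, and 0.207 to 0.581 between group 8 and group 9), so plates pair the libraries. Levels are CPM and are not length corrected, so they compare groups and not genes. No doublet caller was run, since the sort placed 1 cell per well. Of all UMIs 14.1% fell on 2109 entries that join several gene names. For shares and ranks the plate differences were tested by exact permutation of their signs, two-sided. The motif was searched in RefSeq promoter entries. Named genes were the 12 with the largest and the 12 with the smallest fold per comparison among called genes with the same direction on all plates and at least 50 CPM, plus tested members of 38 gene lists. The cells, lists and tests were chosen with earlier results of these data known. The edgeR step was run on simulated plate sums with a small plate effect and a single fixed dispersion. That run checks the code, and it does not cover plates that differ as widely as plate 2 does here. Alternatives were DESeq2 1.42.0, no plate block, no filter, cells of at least 1000 UMIs, thinning to 1000 or 750 UMIs, group 4 alone as reference, each plate left out, means for medians, and 10% for the CFP fractions.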

Additional observations from a re-analysis of the deposited data

Results flagged for a closer look

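Of 118 sets of 4 plate values checked for a plate far from the others, 4 stood out, and chance does this in about 1 in 20 such sets. The median UMIs per cell of group 8 on plate 2 were 1251, with 1484.5 to 1520 on the other plates. Detected genes per cell in group 8 on plate 2 were 795, also the lowest. Gmnn stood at 23.3 CPM in group 8 on plate 2, which is 1 UMI, with 132 to 153 on the other plates. The difference in forward scatter height between group 8 and groups 2 to 5 was -14.7 percentile points on plate 5, where the other plates gave positive values.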

How the results depend on the processing

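Counts of called genes depended most on the fit. For group 8 against groups 2 to 5 (341 called, 176 higher, 165 lower), DESeq2 called 138 (96 higher, 42 lower), thinned cells 140 (67 and 73), the fit without the replicate block 76 (52 and 24), and the fit with no filter 115 higher. For group 8 against group 9 (122, 70 and 52) these were 67 (38 and 29), 41 (23 and 18), 1 (0 and 1, with 259 genes at an unadjusted p under 0.05) and 33 higher. All calls of DESeq2 and of the fit without the block were among the 341 and the 122. Leaving out each plate in turn gave 139 to 341 called genes against groups 2 to 5 (74 to 184 higher, 65 to 157 lower) and 73 to 98 against group 9 (37 to 53 higher, 34 to 45 lower). The median folds of the 3 replication lists over groups 2 to 5 stayed positive in each of the 10 alternatives. Reversals were seen for Rpl32 against groups 2 to 5 with group 4 as reference (0.22) and Pf4 without plate 5 (-0.32, up to 1.83 without plate 4). List medians changed sign in 14 of 338 cases (7 of 34 lists) against groups 2 to 5 and in 28 of 304 (14 of 34) against group 9, most from medians near 0. Among them are replication-dependent histones over groups 2 to 5 with group 4 (-0.12), and, against group 9, origin licensing without plate 2 (0.047), HSC surface genes without plate 3 (-0.044) and HSC transcription factors in 5 settings (-0.093 without plate 4). Where the median had been larger than its spread over plates, it reversed against group 9 for nucleolar genes without plate 3 (0.031, down to -0.14 without plate 4), interferon genes without plate 2 (-0.062, up to 0.24 without plate 5) and, after thinning, glycolysis (-0.0091), MHC class I (-0.061) and immediate early genes (-0.40). The histone share minus that of groups 2 to 5 reversed without plate 3 (-0.00101), without plate 5 (-0.0227, range over plates left out up to 0.0380) and with group 4 (-0.00938). Channel ranks reversed for forward scatter height against groups 2 to 5 without plate 5 (4.19), with group 4 (3.15) and with mean ranks (1.57), where leaving out other plates gave down to -2.38, and against groups 2 to 5 for PE-Cy5 without plate 4 (-2.66, up to 4.84) and APC without plate 4 (-1.61) or 5 (-0.585, up to 5.84). Against group 9 they reversed for forward scatter area without plate 4 (-1.77, up to 9.71) and Alexa Fluor 700 without plate 3 (-0.819, up to 6.08). The cause of these changes was not tested. Depth limits weak genes: 2865 of 27297 entries could be tested.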
